A study of Homo sapiens with 8 samples.

Results

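Always-open distal regions are the stretches of the genome that carried an ATAC-seq peak in every one of the 8 libraries of the study and lay away from any annotated gene start. They were chosen by merging the deposited peaks of all libraries on the 22 autosomes and X. A merged region was kept if all 8 lists had a peak in it and if its midpoint was more than 10 kb from every transcription start site (TSS) of the GENCODE 44 annotation of GRCh38. This gave 6308 members, which are 2.21% of the 285853 merged regions, 4.09% of the 154042 distal regions and 22.4% of the 28115 regions with a peak in all libraries. The cells came from RUES2, an established line of human embryonic stem cells, and were taken through a directed cardiac differentiation at 4 stages, with 2 replicate libraries at each. ESC cells were collected on day 0 from E8 medium, after the low dose of the Wnt activator CHIR-99021 that all wells received the day before. MES (mesoderm) cells were collected on day 2 in RBA medium (RPMI with BSA and ascorbic acid) with more CHIR-99021, CP (cardiac progenitor) cells on day 5 after a change to the Wnt inhibitor Xav-939, and CM (cardiomyocyte) cells on day 14 in RPMI with B27. All groups come from 1 line in culture, the labels name no selection for cardiomyocytes, and no genotype or control line differs between them.

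ATAC-seq marks accessible DNA, since the Tn5 transposase inserts sequencing adapters where nucleosomes do not block it. Accessible sites far from promoters are mostly enhancers, which tend to open and close with cell identity, and insulator sites bound by CTCF, a zinc finger protein that is present in nearly all cell types. CTCF binds a long, asymmetric sequence and halts the cohesin ring there, so that chromatin loops form mainly between sites whose sequences point towards each other. A distal site that stays accessible through a change of cell fate is therefore often a CTCF site, a promoter that the annotation lacks, or an enhancer for factors that several cell types share.

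The CTCF consensus, written as CCANNAGNNGGC and searched on both strands in the 200 bp around the median summit, was present in 1065 of the members. Of these, 547 had it on the forward strand only, 510 on the reverse strand only and 8 on both. The sites below are shown because neighbouring CTCF sites that face each other are the arrangement found at loop anchors. They are the 3 pairs of neighbouring consensus members, with the left site on the forward and the right site on the reverse strand and 100 to 1000 kb apart, that had the highest fold in their weakest library. Each is printed 5′ to 3′ on the strand of the consensus, whose 12 bases are in capitals, with GRCh38 coordinates.
CDH2 left, chr18:27605399-27605438, forward strand: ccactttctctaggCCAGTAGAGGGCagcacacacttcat
CDH2 right, chr18:27750228-27750267, reverse strand: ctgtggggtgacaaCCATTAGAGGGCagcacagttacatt
TTC6 left, chr14:37622700-37622739, forward strand: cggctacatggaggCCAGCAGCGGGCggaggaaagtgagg
TTC6 right, chr14:37874819-37874858, reverse strand: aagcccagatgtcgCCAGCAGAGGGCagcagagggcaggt
ARAF, chrX:47541232-47541271, forward strand: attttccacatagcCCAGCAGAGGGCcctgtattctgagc
ZNF630, chrX:48026786-48026825, reverse strand: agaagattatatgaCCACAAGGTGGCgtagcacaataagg

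The first pair lies 145 kb apart in intergenic DNA on chromosome 18, 384931 and 240123 bp from the nearest TSS of CDH2, which encodes N-cadherin, the adhesion protein of cardiac cell junctions. The left site had a fold over local background of 8.33 and 8.08 for ESC, 8.92 and 9.47 for MES, 7.56 and 7.39 for CP and 7.72 and 9.74 for CM. The CM values spanned those of ESC and MES, and both CP values lay below all others. The right site had 12.0 and 10.7 for ESC against 6.83 and 8.25 for CM, which did not overlap, yet the difference did not pass the test (log2 difference −0.37 ± 0.15 SE, limma, adjusted p = 0.0989). The second pair lies 252 kb apart within TTC6, the left site in a coding exon and the right site in an intron. The third pair lies 486 kb apart on X, with its left site 19899 bp from the TSS of the kinase gene ARAF and its right site in an intron of ZNF630. All 6 sites kept a fold of at least 5.93 in every library, and none passed the test of CM against ESC, with adjusted p from 0.0989 to 0.970. From the median summit, the matches lay at −3 and 35 bp for CDH2, 89 and 18 bp for TTC6, −74 bp for ARAF and −31 bp for ZNF630. At the left TTC6 site the summits of the libraries ranged over 398 bp. Binding of CTCF at these matches was not tested.

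Across the members, strength was lowest in CM. The fold of the strongest peak in a region, which is the authors' peak caller's ratio of read pileup to the background of the surrounding sequence, had a median over the members of 6.90 and 7.44 for ESC, 7.40 and 8.48 for MES, 6.27 and 8.47 for CP and 5.38 and 5.56 for CM. Both CM libraries lay below every other library, while ESC, MES and CP overlapped. Always-open promoters, the 16435 regions with a peak in all lists and a midpoint within 1 kb of a TSS, had medians of 7.32 and 7.29 for ESC, 7.55 and 7.97 for MES, 7.17 and 8.56 for CP and 6.67 and 7.19 for CM. By this fold, members stood close to the promoters in ESC and MES, and below them in both CM libraries. In recovered read pileup, the median of the members lay below that of the promoters in every library. The log2 difference was −0.88 and −0.78 for ESC, −0.95 and −0.78 for MES, −1.0 and −0.91 for CP and −1.09 and −1.14 for CM. Other distal peaks had median folds of 3.85 to 4.92. Being in every list favours strong sites, so this lower level is part of the choice of members and no finding. Accessible DNA in fewer cells and a lower accessibility in each cell cannot be told apart in these bulk libraries. The CM libraries also had the shortest peak lists, with 92731 and 55777 peaks. The part of library depth and background in their lower fold was not tested.

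**Figure D1:**
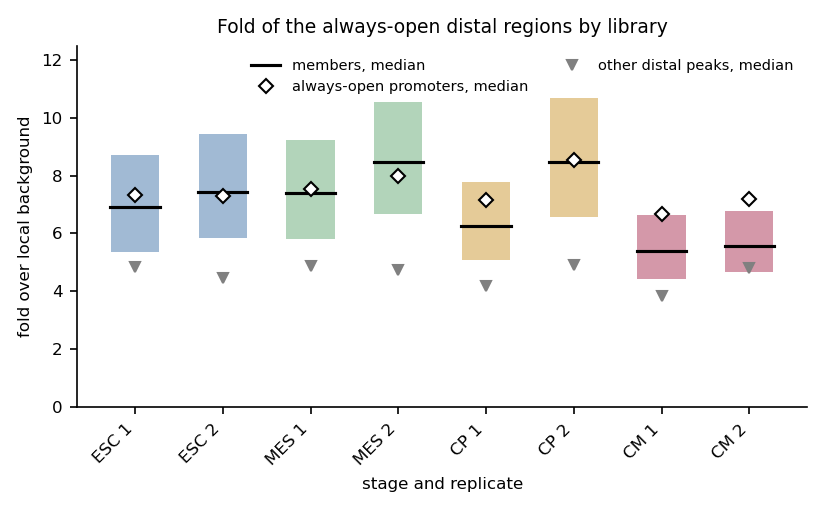
Fold over local background (linear axis) of the 6308 members in each library, by stage and replicate. Boxes span the quartiles and black lines mark the medians, open diamonds mark the median of the always-open promoters and grey triangles that of the other distal peaks of the library. The member medians of 5.38 and 5.56 for CM lie below those of all other libraries and below the promoter medians of 6.67 and 7.19.

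The libraries held 55777 to 156179 peaks on these chromosomes, fewest in CM replicate 2 and most in MES replicate 2. The number of members depends on the shortest list. Of 5769 distal regions with a peak in 7 lists, 4044 (70.1%) lacked 1 in CM replicate 2, against 27 to 526 for each other library. Without that library, 10352 regions would be members. The weakest peak of a member lay in a CM library for 4240 members (67.2%). Over the members, the lowest of the 8 folds ranged from 2.27 to 22.4 with a median of 4.67, and the highest of the 8 had a median of 9.63. In the regions with 7 peaks, just outside the choice, the highest fold had a median of 8.40. At the distance limit, the nearest members lay 10001 and 10010 bp from a TSS, and the nearest always-open regions left out lay at 9996 and 9991 bp. The folds of the 6308 members had a Spearman correlation of 0.657 to 0.848 between replicates and of 0.376 to 0.747 between libraries of different stages. These values describe regions of the same genome and share each library's depth. Peaks at marker promoters separated the ESC and CM libraries in part, and did not separate all 4 stages. All 6 ESC marker genes had a peak within 1 kb of a TSS in both ESC and both MES libraries. In each CM library 4 of 6 had one, but the CM lists were also the shortest, with 92731 and 55777 peaks. Of 7 cardiomyocyte genes, 3 had a peak in the ESC libraries and 6 and 5 in the CM libraries, and MYH7 lacked one in all 8. All 5 mesoderm and all 3 neural genes had a peak in every library, and all 5 progenitor genes in every library but ESC replicate 1, which had 4, so a peak at these genes does not mark a stage. Of 3 endothelial and blood genes, 0 to 2 had a peak in any library. Of 3 endoderm genes, all had one in 7 libraries and 1 in CM replicate 2.

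The members with the strongest weakest library were ranked by the lowest of their 8 folds. The sequences around the median summit of the first 3 are shown because they differ in kind. Guanine and cytosine make up 21.5% of the 200 bp around the first summit, 67.0% around the second and 60.5% around the third. Capitals mark matches to the 18 consensus sequences searched.
chromosome 3 pericentromeric, chr3:93470455-93470554, forward strand: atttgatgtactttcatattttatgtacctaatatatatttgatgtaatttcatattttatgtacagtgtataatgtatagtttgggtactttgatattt
ZSWIM6 intron, chr5:61408826-61408925, forward strand: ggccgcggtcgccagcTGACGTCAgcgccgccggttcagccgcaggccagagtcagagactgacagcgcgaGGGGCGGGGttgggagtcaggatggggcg
OR1D5 side, chr17:3048963-3049062, forward strand: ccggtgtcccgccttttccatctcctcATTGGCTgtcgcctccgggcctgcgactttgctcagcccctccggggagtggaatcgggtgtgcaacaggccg

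The strongest of all, chr3:93470285-93470876, lies in intergenic DNA beside the centromere, 185 kb from the nearest assembly gap and 373183 bp from the nearest TSS. Its fold was 22.6 and 23.5 for ESC, 23.2 and 22.8 for MES, 22.4 and 22.6 for CP and 22.8 and 22.9 for CM. These values sit near the highest fold of any peak in each library, 22.8 to 24.9. Its pileup, at 49.6 to 91.8 times the lowest background of the library, differed more between libraries than its fold. The second, chr5:61408528-61409106, lies in an intron of ZSWIM6, 76559 bp from the nearest coding TSS and 16946 bp from the pseudogene RPL3P6. It had a fold of 14.0 and 13.9 for ESC, 13.8 and 14.0 for MES, 13.1 and 19.7 for CP and 14.6 and 14.6 for CM. The 2 matches in the printed stretch are TGACGTCA for CREB and GGGGCGGGG for the GC box bound by SP factors, and the 200 bp window also holds a TEAD match. In windows of 200 bp the CREB and GC box sequences were in 2.53% and 25.4% of the always-open promoters and 0.349% and 3.09% of the members. The third, chr17:3048629-3049511, lies 14537 bp from the olfactory receptor gene OR1D5, with a match to the NFY box and folds of 13.04 to 17.3. The other 2 lie in an intron of the pseudogene RPL23AP49 on chromosome 3, with folds of 12.4 to 17.8, and 54017 bp from the vitamin D binding protein gene GC on chromosome 4, with folds of 12.3 to 15.8. Only the last of these 5 passed the test of CM against ESC (log2 difference 0.52 ± 0.10 SE, limma, adjusted p = 0.00479), with both CM values, 15.3 and 15.4, above both ESC values, 12.3 and 12.6.

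Consensus sequences that the choice of members did not use differed in frequency between members and other distal regions. The CTCF consensus was in 16.9% of the members (95% Wilson interval 15.98 to 17.8), 3.19% of the 147734 other distal regions (3.11 to 3.29), 4.64% of the always-open promoters and 4.35% of all merged regions. Its letters in reversed order, a pattern of the same composition, were in 0.127% of the members and 0.1% of the other distal regions. The share was higher the more libraries had a peak in a distal region, from 1.71% at 1 library through 4.20% at 4 and 12.7% at 7 to 16.9% at 8. With up to 1 mismatch allowed, 52.8% of the members and 25.48% of the other distal regions held it, beside 8.42% and 5.66% for the reversed letters. The intervals cover counting error only.

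The consensus lay close to the summit. Its centre was within 20 bp of the median summit in 622 of the 1065 members (58.4%), and the quartiles of the signed distance were −16 and 18 bp. The summit itself moved little between libraries at these sites. The range of the 8 summit positions had a median of 53 bp in members with the consensus and 83 bp in members without it, beside 86 bp in always-open promoters. Consensus members were also narrower, with a median merged width of 560 bp against 649 bp. Of 1034 neighbouring pairs, 271 (26.2%) faced each other, 263 (25.4%) faced away and 500 (48.4%) pointed the same way. Among the 4684 pairs of other distal regions with the consensus the shares were 24.9%, 24.9% and 50.1%, close to those of the members. Among the 380 pairs within 1 Mb, 86 faced each other and 108 faced away.

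**Figure D2:**
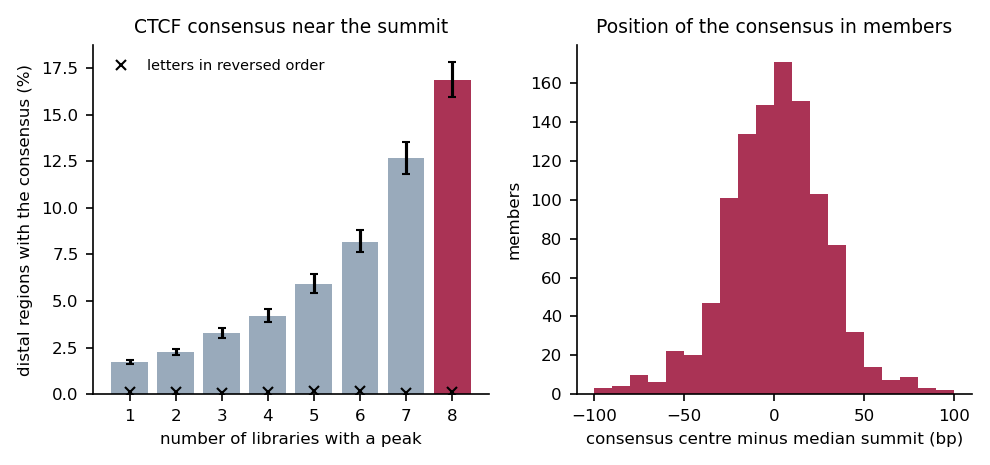
Left, share of distal regions (%) with the CTCF consensus in 200 bp around the median summit, by the number of libraries with a peak, with 95% Wilson intervals, the members in red and crosses for the reversed letters. Right, number of members by distance (bp) of the consensus centre from the median summit, in steps of 10 bp. The share climbs from 1.71% to 16.9%, and 58.4% of the consensus members have it within 20 bp of the summit.

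For the GC box, NRF1 and ETS sequences the share of members lay between those of other distal regions and promoters. The GC box (GGGGCGGGG) was in 3.09% of the members, 0.675% of the other distal regions and 25.4% of the promoters. The NRF1 consensus (GCGCNTGCGC), which marks promoters of housekeeping genes, was in 0.602% of the members against 0.025% and 8.97%. The ETS consensus (CCGGAAG) was in 2.28% against 0.895% and 12.4%, but its letters reversed were in 3.90% of the members, more than the consensus itself. The consensus of REST (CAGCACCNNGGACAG), a repressor of neuronal genes outside neurons, was in 28 members (0.444%) against 0.104% of the other distal regions and 0.365% of the promoters.

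Sequences of lineage factors were less frequent in members. The letters AGATAA, bound by GATA factors, were in 8.13% against 12.9% of the other distal regions, the NKX consensus (TNAAGTG) in 8.34% against 11.4% and the T-box consensus (AGGTGTGA) in 1.22% against 1.97%. For GATA and NKX the reversed letters were also less frequent in members, 4.90% against 7.00% and 7.77% against 10.1%. AP-1 was in 9.05% against 8.62% and TEAD in 15.4% of both.

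The AP-1 search used TGANTCA and the TEAD search GGAATG. Guanine and cytosine made up a median of 55.0% of the 200 bp in members, 50.5% in other distal regions and 69.0% in promoters, and members held CpG at a median of 0.267 of the number their bases would give, against 0.160 and 0.829. The share of each consensus that base composition accounts for was not tested.

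Members were narrow, and few held more than 1 peak. The merged regions spanned 250 to 2387 bp with a median of 629 bp, and 930 of them (14.7%) were over 1 kb. All together they covered 4.43 Mb. In 5149 members (81.6%) every library had a single peak. In 93.6% of the members the strongest peaks of all 8 libraries shared at least 1 base, and this shared core had a median of 236 bp, against 592 bp in always-open promoters. The strongest peak had a median width of 418 and 490 bp in ESC, 435 and 492 bp in MES, 407 and 453 bp in CP and 381 and 307 bp in CM. CM was the narrowest stage in both replicates. Over all peaks of a library the median width was 310 to 327 bp with no such fall. These lists hold different regions, from 55777 to 156179 peaks, so they are no like comparison for a fixed set. Always-open promoters had medians of 828 and 960 bp in ESC, 889 and 921 bp in MES, 841 and 852 bp in CP and 825 and 679 bp in CM. There too, both CM libraries were the narrowest.

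Members were spread over all chromosomes at 2.08 per Mb of reference, from 1.199 on chromosome 21 to 2.74 on chromosome 10, with 1.56 on X. As a share of the distal regions of a chromosome they were most frequent on chromosome 19 (7.39%) and least on chromosome 2 (3.28%). The gap between the midpoints of neighbouring members had a median of 261 kb, with quartiles of 88.5 and 598 kb, a lowest gap of 454 bp and a highest of 29.1 Mb. Another member lay within 10 kb of 590 members (9.35%) and within 100 kb of 2827 (44.8%). Among all distal regions in order along the genome, 11.4% of the members had a member as a direct neighbour, against 7.79% of the other distal regions. Groups in steps of at most 10 kb numbered 277, of which 24 held 3 members or more. The group with most members, 6 in chr16:34572658-34595633, and 1 of 5 members in chr5:49657067-49667418 near EMB lie 1.15 kb and 0 kb from an assembly gap, and a further 5 in chr16:46386316-46401142 lie 5.63 kb from one. In all, 55 members lie within 100 kb of a gap (0.872%, against 0.376% of the other distal regions). Other groups of 5 lie in ATXN7L1 on chromosome 7 and 20.4 kb from the pseudogene RN7SL499P on chromosome 2, 37985 and 10496 kb from any gap. The 5 members farthest from any TSS lie on chromosome 5, 0.114 to 2.62 kb from an assembly gap. Their nearest TSS is that of EMB, 752948 to 811808 bp away. They had folds of 2.44 to 6.01, and none passed the test of CM against ESC. The sequence of 1 member aligned to the mitochondrial genome, and members of this kind were left out of the ranking by strength.

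The annotation placed 3157 members (50.05%) between genes, 2971 (47.1%) in introns, 81 (1.28%) in coding exons, 60 (0.951%) in untranslated exons and 39 (0.618%) in non-coding exons. Other distal regions were 44.9% intergenic and 52.8% intronic. The median distance to a TSS was 24.2 kb in members and 29.6 kb in other distal regions, and to the TSS of a protein-coding gene 57.4 kb and 93.0 kb. A share of 51.6% of the members lay within 25 kb of a TSS and 408 (6.47%) beyond 100 kb. The members in genes fell in 2263 genes. KAZN, a long gene for a junction-associated protein, held the most, with 9, of which 3 rose and 2 fell between ESC and CM. NRXN3, a neuronal adhesion gene, held 7, of which 3 carried the CTCF consensus, 3 fell and 1 rose. ATXN7L1, CSMD1, DLGAP2, LRMDA and MAML3 also held 7 each, of which 0 to 2 fell and 0 to 1 rose. Over all always-open regions tested, 6.33% were called higher and 6.04% lower in CM than in ESC. The counts per gene are small and were not tested.

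Stage differences were tested with limma on the log2 fold of the strongest peak, fitted over all 28115 always-open regions with the median of each library subtracted and p-values adjusted over all of them. Because a region without a peak at any stage is no member, these tests see only changes among sites that kept a peak. Between any stages, 1307 members (20.7%) differed, against 10.1% of all regions tested. In CM, 917 members (14.5%) were lower than in ESC, where 6.04% of all regions tested were, and 324 (5.14%) were higher, where 6.33% of all were. On these centred values the promoters among the regions tested ran the other way, with 309 lower (1.88%) and 1143 higher (6.95%). Before centring, the median fold of the promoters was also lower in CM, at 6.67 and 7.19, than in ESC, at 7.32 and 7.29. After centring, the median log2 difference was −0.13 over the members, 0.18 over the promoters and 0.10 over all regions. All 917 falls and 315 of the 324 rises had folds that did not overlap between the 2 stages, as had 3155 of the 5067 members not called, so non-overlap alone does not set the called members apart. Falls had a median log2 difference of −0.72 and reached −1.67, and 125 were beyond 2-fold. Rises had a median of 0.77 and reached 1.75, and 71 were beyond 2-fold. Without centring the members split into 56 higher and 954 lower, and on the recovered read pileup, taken over the lowest background of the library, into 638 and 885. With promoter medians subtracted the split was 150 and 1223, and with the pileup uncentred 156 and 1571. The share of higher among called members was 26.1% as tested and 5.54%, 41.9%, 10.9% and 9.03% in these 4 settings. The median of the members was below 0 in each of them, at −0.35, −0.05, −0.27 and −0.45. Leaving out single libraries moved the counts of higher and lower members to 125 and 400 without ESC replicate 1, 173 and 297 without ESC replicate 2, 205 and 734 without CM replicate 1, and 162 and 418 without CM replicate 2.

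Steps between neighbouring stages gave fewer calls. In MES, 120 members were higher than in ESC (0.694% of all regions tested were) and 28 were lower (0.178%). In CP, 36 were higher than in MES (0.245%) and 39 lower (0.21%). In CM, 44 were higher than in CP (0.391%) and 296 lower (1.71%). The last step thus held most of the falls between neighbours. Of the 1307 members that differed between any stages, the highest stage mean was that of ESC in 438, of MES in 442, of CP in 229 and of CM in 198, and the lowest was that of CM in 739 (56.5%). Among the 917 falls from ESC to CM, 390 had stage means that were lower at every step, and 144 of the 324 rises had stage means that were higher at every step. Of the 5067 members not called in CM against ESC, 379 fell and 184 rose at every step. A called difference between the ends makes an ordered series more likely, so these counts do not measure gradual change. Higher members made up 81.1% of the calls from ESC to MES, and all 37 calls without centring, 98.5% with promoter medians and 95.6% with the pileup uncentred. They made up 48.0% from MES to CP, and 33.5% with the pileup uncentred. They made up 12.9% from CP to CM, and 0.712% without centring, 32.2% on the pileup and 0.696% with the pileup uncentred. These counts rest on few libraries. Members that differed between any stages numbered 737 without CM replicate 2. Rises from ESC to MES numbered 18, 17, 37 and 74 without MES replicates 1 and 2 and ESC replicates 1 and 2. Falls at that step numbered 2, 3, 0 and 3 without them, and 43 without CP replicate 2. From MES to CP, rises numbered 7, 19, 80 and 10 and falls 0, 1, 106 and 23 without MES replicates 1 and 2 and CP replicates 1 and 2, and 25 fell without ESC replicate 1. From CP to CM, falls numbered 97 without CP replicate 2 and 100 without CM replicate 2, and rises 78 without CP replicate 1, 29 without CM replicate 1 and 11 without CM replicate 2. At an unadjusted p below 0.05, limma gave 350 falls from ESC to MES without ESC replicate 1 and 608 from MES to CP without MES replicate 1, where the adjusted counts were 0.

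The difference between members and promoters was followed over the stages. The median log2 fold of the members minus that of the promoters was −0.08 and 0.03 for ESC, −0.03 and 0.09 for MES, −0.19 and −0.01 for CP and −0.31 and −0.37 for CM. Only CM was separate from all other stages. With stage order, over 8 libraries, Pearson's r was −0.78 (two-sided exact permutation p = 0.0294, adjusted over 4 relations p = 0.0550) and Spearman's rho −0.68 (p = 0.0825), which did not pass. On day instead of order r was −0.88 (exact adjusted p = 0.0238) and on the recovered pileup −0.85 (exact adjusted p = 0.0476). Without the CM libraries r was −0.35 (exact p = 0.533, adjusted p = 0.711), and without the ESC libraries −0.91 (exact p = 0.0444, adjusted p = 0.0889). The median fold itself gave r = −0.61 (exact adjusted p = 0.116, rho −0.59), and 0.0636 without the CM libraries. On day it gave −0.77, which passed (exact adjusted p = 0.0339). The median width gave r = −0.72 (exact adjusted p = 0.0550, rho −0.68), and −0.30 without the CM libraries. On day it gave −0.81, which passed (exact adjusted p = 0.0238). Without CP replicate 2, all 4 relations had an exact adjusted p of 0.0413, and without ESC replicate 1 the relations of members with promoters and of width had one of 0.0349. The lowest background was 4.57 and 2.54 reads in the CM libraries and 3.13 to 4.62 in the others, and the part of depth in these relations was not tested.

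**Figure D3:**
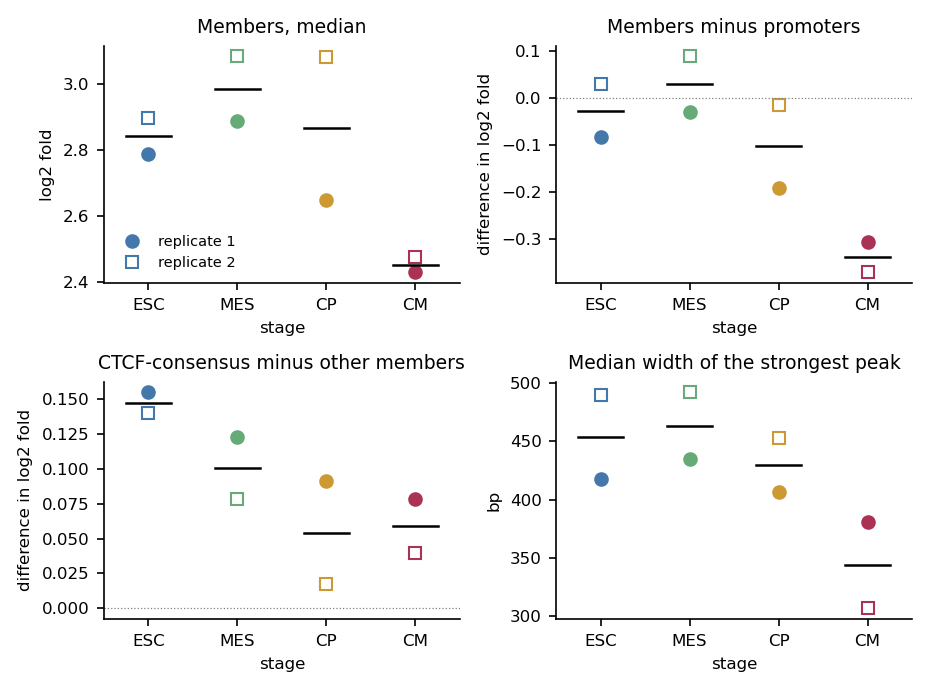
4 summaries of the members by stage: median log2 fold, median log2 fold minus that of always-open promoters, median log2 fold of CTCF-consensus members minus other members, and median width of the strongest peak (bp). Filled circles are replicate 1, open squares replicate 2 and black lines the stage means. In the members minus promoters the CM libraries, at −0.31 and −0.37, lie below all others.

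On centred values, the difference between CM and ESC was lower in members than in promoters in the bands of composition and width given here. Members with 60 to 70% G and C had a median log2 difference of CM against ESC of −0.08, and promoters of that range 0.16. Below 50% the medians were −0.18 and 0.06. For strongest peaks of 400 to 600 bp, averaged over the libraries, they were −0.15 and 0.05. The part of composition and width in the difference was not tested. The share of members called lower in CM grew with strength, from 1.43% at a mean fold under 5 to 31.3% at 9 or more. Among promoters the shares over the same 4 bands were 0.556%, 2.02%, 2.79% and 1.62%. Every member kept a peak in both CM libraries, so a weak region had little room to fall and stay a member. The mean fold also includes the ESC and CM values compared, so no conclusion is drawn from this growth. The share of members called lower also grew with distance from a TSS, from 12.0% within 25 kb through 14.7% at 25 to 50 kb and 20.3% at 50 to 100 kb to 21.1% beyond 100 kb. Over these distances the median of the mean fold also went from 6.91 to 7.65. On X, 11.9% of the 243 members were lower and 6.17% higher, close to the 14.6% and 5.09% on the autosomes.

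The members with the largest differences between ESC and CM are shown next. The sequences are the 200 bp around the median summit of the 3 largest rises and the 3 largest falls, printed to show where the matches lie in the members that changed most. Capitals mark matches to the 18 consensus sequences, and a GATA match on the reverse strand reads as the reverse complement of AGATAA.
Chromosome 4, rise, chr4:108360075-108360274, forward strand: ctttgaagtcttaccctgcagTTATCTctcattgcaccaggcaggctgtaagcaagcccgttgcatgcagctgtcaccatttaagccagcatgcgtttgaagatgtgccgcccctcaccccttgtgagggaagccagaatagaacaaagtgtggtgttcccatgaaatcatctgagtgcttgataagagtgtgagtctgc
FZD4-DT, rise, chr11:87000286-87000485, forward strand: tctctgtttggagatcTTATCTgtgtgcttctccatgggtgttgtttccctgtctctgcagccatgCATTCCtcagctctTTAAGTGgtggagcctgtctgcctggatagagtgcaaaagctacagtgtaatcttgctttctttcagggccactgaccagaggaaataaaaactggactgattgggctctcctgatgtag
COX7C side, rise, chr5:86787038-86787237, forward strand: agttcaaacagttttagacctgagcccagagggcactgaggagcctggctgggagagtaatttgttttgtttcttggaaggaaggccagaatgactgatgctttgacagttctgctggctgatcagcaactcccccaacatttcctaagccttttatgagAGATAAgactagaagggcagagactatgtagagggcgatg
NALCN, fall, chr13:101202650-101202849, forward strand: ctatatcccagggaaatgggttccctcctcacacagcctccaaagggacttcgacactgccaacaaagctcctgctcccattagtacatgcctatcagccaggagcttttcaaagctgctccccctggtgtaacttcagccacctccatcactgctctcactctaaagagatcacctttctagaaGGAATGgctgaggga
FGF14, fall, chr13:102091314-102091513, forward strand: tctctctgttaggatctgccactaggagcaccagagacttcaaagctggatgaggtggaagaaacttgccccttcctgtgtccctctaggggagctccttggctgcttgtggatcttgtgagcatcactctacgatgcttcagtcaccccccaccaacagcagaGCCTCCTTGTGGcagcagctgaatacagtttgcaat
NCAM2 side, fall, chr21:20570928-20571127, forward strand: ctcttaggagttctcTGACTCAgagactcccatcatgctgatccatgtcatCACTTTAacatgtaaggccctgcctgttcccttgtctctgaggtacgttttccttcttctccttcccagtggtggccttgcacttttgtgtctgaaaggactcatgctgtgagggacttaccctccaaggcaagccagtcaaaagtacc

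The largest rise, chr4:108359920-108360657, is intergenic, 191333 bp from the nearest coding TSS, that of the Wnt effector gene LEF1. Its fold was 3.29 and 3.36 for ESC, 6.51 and 8.05 for MES, 10.5 and 11.7 for CP and 9.78 and 9.41 for CM. No stage overlapped another. It rose from ESC to MES already (log2 difference 1.02 ± 0.15 SE, limma, adjusted p = 0.00534) and by 1.75 ± 0.15 from ESC to CM (adjusted p = 7.65e-05). The second, in an exon of FZD4-DT, the divergent transcript of the Wnt receptor gene FZD4, had 4.22 and 4.09 for ESC, 8.98 and 8.54 for MES, 9.91 and 14.0 for CP and 11.1 and 12.7 for CM. It too rose at the first step, by 0.97 ± 0.14. The third, 169187 bp from the respiratory chain gene COX7C on chromosome 5, had 4.35 and 4.81 for ESC, 4.30 and 8.71 for MES, 7.48 and 13.9 for CP and 12.8 and 13.03 for CM. The fourth, in an intron of the phosphatase gene PTPRR on chromosome 12, had folds of 3.56 to 5.34 in all 6 earlier libraries and 10.9 and 10.5 for CM, and rose at the last step (log2 difference 1.45 ± 0.21 SE, limma, adjusted p = 0.00234). The fifth, 222219 bp from the guidance gene SEMA3A on chromosome 7, had folds of 4.07 to 5.47 for ESC and MES, 12.2 and 16.5 for CP and 11.8 and 13.1 for CM, so that its rise came between MES and CP (1.63 ± 0.16, adjusted p = 0.000850). The first 3 held a GATA match in their window, and the fourth and the fifth none. Among the 5 largest falls, the fourth held one.

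The largest fall, chr13:101202502-101203042, lies in an intron of NALCN, the sodium leak channel that sets the resting potential of neurons. It had a fold of 15.2 and 17.5 for ESC, 14.7 and 14.8 for MES, 6.41 and 13.5 for CP and 4.31 and 4.52 for CM (log2 difference of CM against ESC −1.67 ± 0.18 SE, limma, adjusted p = 0.000165). The second, less than 1 Mb away in an intron of FGF14, which encodes a partner of voltage-gated sodium channels, had 13.8 and 17.8 for ESC, 13.1 and 15.4 for MES, 9.61 and 16.9 for CP and 3.77 and 4.80 for CM. This one fell at the last step (−1.30 ± 0.17, adjusted p = 0.00129), and it holds a CTCF consensus. The third, 427382 bp from the neural adhesion gene NCAM2 on chromosome 21, had 15.2 and 15.7 for ESC, 13.8 and 14.8 for MES, 7.26 and 9.52 for CP and 4.49 and 3.96 for CM, and no 2 stages overlapped. The fourth, in an intron of LIX1-AS1 on chromosome 5, fell already from ESC to MES, from 13.3 and 14.3 to 7.46 and 8.71 (−0.88 ± 0.15, adjusted p = 0.0101), and reached 3.59 and 3.96 for CM. The fifth, 100088 bp from FBXO15 on chromosome 18, had 11.2 and 11.3 for ESC and 2.96 and 3.37 for CM. All 5 falls ended in CM at folds of 2.96 to 4.80, where the lowest fold of any member in any library was 2.27. In all 5 the ratio between the CP replicates was larger than that between the ESC replicates.

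**Figure D4:**
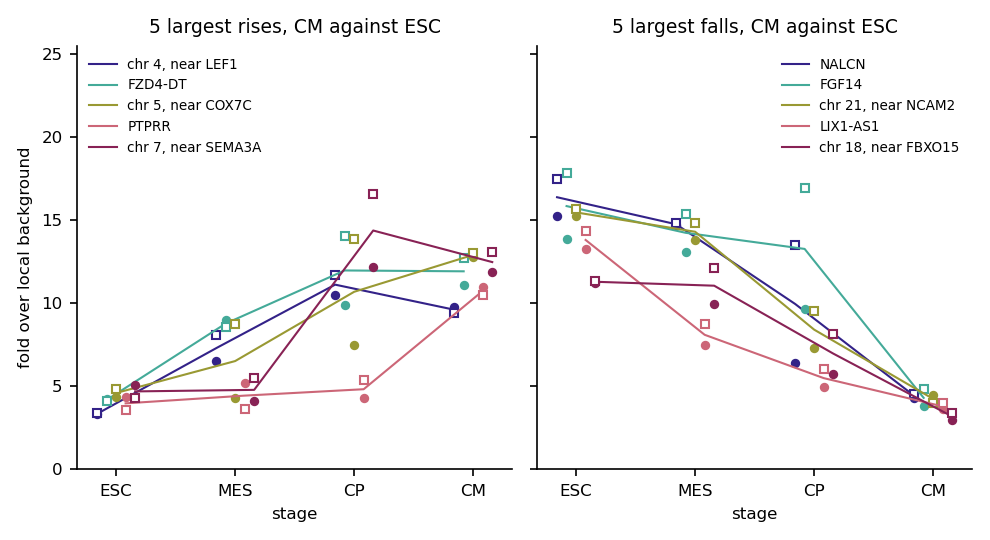
Fold over local background (linear axis) by stage of the 5 members with the largest rise (left) and the 5 with the largest fall (right) in CM against ESC. Filled circles are replicate 1, open squares replicate 2 and lines join the stage means. The rises start at 3.29 to 5.08 for ESC, and the falls end at 2.96 to 4.80 for CM.

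The calls were also counted by consensus. The consensus was not used to choose the members or to fit the test, and the counts are a description. Differences in timing between the consensus groups were not tested. Few CTCF members rose. Of 1065, 8 (0.751%) were higher in CM than in ESC, against 316 of the 5243 others (6.03%) and 6.33% of all regions tested. Their falls numbered 158 (14.8%), against 14.5% of the others and 6.04% of all regions tested. Their median log2 fold minus that of the other members was 0.15 and 0.14 for ESC, 0.12 and 0.08 for MES, 0.09 and 0.02 for CP and 0.08 and 0.04 for CM. They were stronger than the rest in every library, most in ESC. With stage order r was −0.78 (exact permutation p = 0.0246, adjusted p = 0.0550, rho −0.73), and it was −0.37 on the recovered pileup (exact p = 0.375), where the differences ran from −0.03 to 0.14.

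GATA factors 4 and 6 drive the formation of mesoderm and heart muscle. Of the 513 members with a GATA consensus, 65 (12.7%) were higher in CM than in ESC and 58 (11.3%) lower. In MES, 32 (6.24%) were already higher than in ESC. Over all members these shares were 5.14%, 14.5% and 1.90%, and over all regions tested 6.33%, 6.04% and 0.694%. Of the 309 members with the GATA letters reversed, 6.80% were higher in CM and 1.29% in MES. The median log2 fold of the GATA-consensus members was below that of the other members in ESC and above it in all later libraries. The differences were −0.16 and −0.10 for ESC, 0.01 and 0.06 for MES, 0.04 and 0.10 for CP and 0.09 and 0.03 for CM. T-box factors include TBXT and EOMES, which act in early mesoderm. Of the 77 members with that consensus, 8 (10.4%) were higher in MES than in ESC. The shares were 1.90% of all members, 0.694% of all regions tested and 1.56% of the 64 with reversed letters. Over all members, rises at this step numbered 120, but 18 and 17 without MES replicates 1 and 2. In CM, 16 T-box members (20.8%) were lower than in ESC and 5 (6.49%) higher. The shares lower and higher in CM were 14.1% and 7.60% for NKX and 16.3% and 5.88% for MEF2 (CTANNNNTAG). For SOX (AACAATG) they were 15.0% and 3.75%, and over all members 14.5% and 5.14%.

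The octamer ATGCAAAT is bound by POU factors, among them POU5F1, which holds cells pluripotent. Of its 93 members, 25 (26.9%) were lower in CM than in ESC, against 14.5% of all members and 6.04% of all regions tested, and 2 (2.15%) were higher, against 5.14% and 6.33%. Its letters reversed were in 0.0634% of the members, too few to compare. Against the other members they stood at 0.15 and 0.19 log2 in ESC, 0.13 and 0.04 for MES, 0.06 and −0.20 for CP and −0.10 and −0.06 for CM. The forkhead (FOX) consensus TGTTTAC was in 230 members. Of these, 38 (16.5%) were lower in CM than in CP, against 2.53% of the 158 with reversed letters. The share was 4.69% of all members and 1.71% of all regions tested. FOX members stood above the other members by 0.17 and 0.14 for ESC, 0.30 and 0.29 for MES and 0.22 and 0.25 for CP. For CM they stood at 0.06 and −0.00. FOX members were also stronger, with a median of the mean fold of 8.08 against 7.08 over all members, and of the members with a mean fold of 9 or more, whatever their consensus, 16.8% were lower in CM than in CP. AP-1 members, 571 in number, were level with the rest but for CP, where they stood at −0.11 and −0.16. Of the 195 GC-box members, 15 (7.69%) were higher in CM than in ESC, against 5.14% of all members, and 10 (5.13%) were lower, against 14.5%. Over all regions tested the shares were 6.33% and 6.04%.

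**Figure D5:**
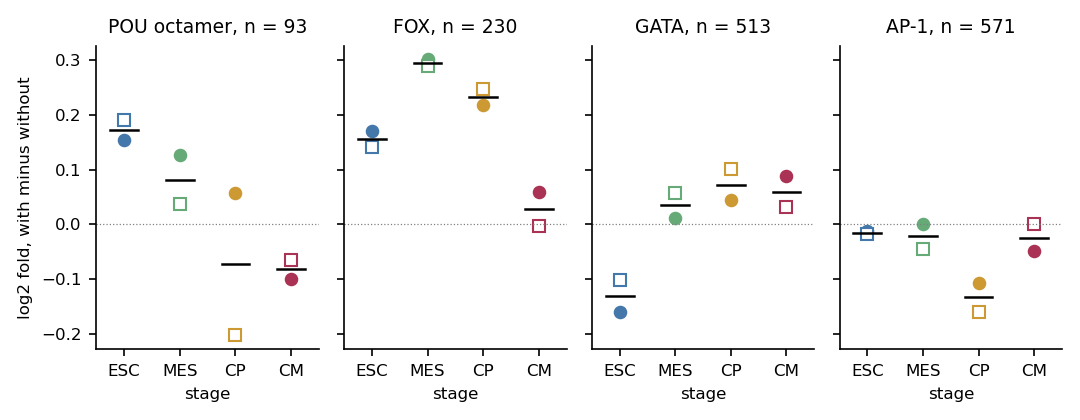
Median log2 fold of members with a consensus minus that of members without it, for the POU octamer, FOX, GATA and AP-1, by stage, with the number of members above each panel. Filled circles are replicate 1, open squares replicate 2 and black lines stage means. POU members stand farthest above the rest in ESC, FOX members at all stages but CM, and GATA members below the rest in ESC alone.

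Neighbouring members showed weak correlation in their stage differences. Over the 313 pairs of neighbours within 10 kb, the log2 differences of CM against ESC had a Spearman correlation of 0.11 and the same sign in 56.2% of the pairs, and over the 2834 pairs 200 to 1000 kb apart 0.05 and 56.3%. Adjacent pairs share members, and pairs within 10 kb share the local background of the peak caller.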

How the data were processed

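ATAC-seq libraries of RUES2 cells at 4 stages, 2 replicates each, were analysed from 8 peak lists. Per the submitters' processing notes and methods, the authors mapped reads to hg38 with BWA 0.7.13, removed duplicates with Picard, called peaks per library with MACS2 2.1.0 and handled them with bedtools 2.26.0. The deposited columns hold a ratio (fold of pileup over local background), −log10 p-values, −log10 q-values, the summit offset and a display score, which was not used. Read totals are not given in the sources used here, so that depth is known only as the number of peaks and the lowest background. Replicates were taken from the labels, and the series calls them biological without saying whether they are separate differentiations, so p-values measure the spread between these libraries.

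Peaks were merged with bedtools 2.31.1, and each region took the fold, width and summit of its strongest peak per library. Pileup and background were recovered from fold and −log10 p for 100% of the peaks. Log2 fold was centred on library medians and tested with limma 3.58.1 (moderated, with trend) and Benjamini-Hochberg adjustment at 0.05. Relations with stage order used two-sided exact permutation over 2520 assignments, with a smallest p of 0.000794. Consensus sequences were read from GRCh38 in 200 bp around the median summit. Wilson intervals are 95% and cover counting error only. All statistics were tested on simulated data. Named regions are the 5 strongest in their weakest library, the 5 largest rises and falls in CM against ESC, 3 facing CTCF pairs and the 5 farthest from a TSS, with chromosome 8 passed over. Members, lists and tests were chosen with earlier results of these data known. Alternatives covered list length, distance, annotation, scaling, measure, windows and each library left out. Alignment to the mitochondrial genome used blastn 2.17.0. Tests ran in R 4.3.3 and in scipy 1.17.1 with statsmodels 0.14.6, tables in pandas 2.3.3 and numpy 2.4.6, and plots in matplotlib 3.10.9 under Python 3.11.15.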

Additional observations from a re-analysis of the deposited data

How the results depend on the processing

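The number of members was 4042 with lists of equal length, 1298 beyond 50 kb, 11094 with protein-coding TSSs only and 6335 to 10352 with 1 library left out. The CTCF consensus was in 15.2% of members in 100 bp, 18.1% in 400 bp, 10.8% around the midpoint and 52.8% with up to 1 mismatch, which was chosen after seeing the data. Pearson's r with stage order ranged from −0.801 to −0.457 for the median fold, −0.867 to −0.685 against promoters, −0.874 to −0.699 for CTCF members and −0.850 to −0.592 for width with 1 library left out. On day it was −0.772, −0.880 and −0.812 for median fold, promoters and width (exact adjusted p = 0.0339, 0.0238 and 0.0238), on the recovered pileup −0.851 against promoters, and without the CM libraries 0.0636 for the median fold.

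Counts of members that moved by over 1.5 times are given in the order higher and lower. Without centring they were 56 in CM against ESC (higher), 37 and 0 in MES against ESC, 0 and 0 in CP against MES and 4 and 558 in CM against CP. At an unadjusted p below 0.05 limma then gave 116 falls from ESC to MES, and 182 rises and 651 falls from MES to CP. Quantile normalization gave 15 falls from ESC to MES and 22 and 22 from MES to CP. The recovered pileup gave 638 rises from ESC to CM, 281 and 74 from ESC to MES, 167 and 215 from MES to CP and 164 rises from CP to CM. Of the 2518 members with a lowest fold of at least 5, 406 differed between any stages, with 51 and 386 from ESC to CM, 6 and 0 from ESC to MES (128 falls at an unadjusted p below 0.05), 2 and 3 from MES to CP and 6 and 158 from CP to CM. In 2 settings chosen after seeing the data, subtracting promoter medians gave 150 rises from ESC to CM, 66 and 1, 5 and 5, and 16 rises for the later steps, and the recovered pileup without centring gave 2452 members that differed, 156 and 1571, 260 and 12, 68 and 135, and 10 and 1426. The causes were not tested.

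With 1 library left out, 737 to 1828 members differed between any stages, 125 to 414 rose and 297 to 1155 fell from ESC to CM, 17 to 142 and 0 to 43 from ESC to MES, 7 to 80 and 0 to 106 from MES to CP, and 11 to 78 and 97 to 428 from CP to CM. Deviations of same-numbered libraries correlated at 0.129, 0.133 and 0.192 between ESC, MES and CP and at −0.120 to 0.000127 between these and CM. The numbers were therefore not treated as pairs, although the median fold of the members was higher in replicate 2 at all 4 stages, and the permutations over libraries do not take this into account. With a replicate block, 1483 members differed, 353 and 1008 from ESC to CM, and no count moved by over 1.5 times. With the width-weighted mean fold every count also stayed within 1.5 times.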
